A study of Rattus norvegicus with 15 samples.

Results

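The genes described here are the 100 whose levels in rat nucleus accumbens ran most strongly against Slc17a7, which encodes the vesicular glutamate transporter of cortical projection neurons. Each of 14497 genes with 1 platform symbol was represented by its probe set with the highest mean over 15 arrays. Of these, 2146 genes other than Slc17a7 had a standard deviation (SD) of at least 0.15 on the log2 scale over the arrays, and the 100 with the most negative Pearson correlation (r) with Slc17a7 were taken. The arrays that chose the genes are the arrays described, so r is given throughout as a description, with no test.

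The animals were male Sprague-Dawley rats of 250 to 350 g, and no age was given. Rats had 6 hours of self-administration per day over 10 days. An active lever press gave cocaine at 0.75 mg/kg per infusion together with a light cue, and controls took saline under the same conditions. The 5 groups of 3 arrays each were saline (Sal), cocaine with 1 day of withdrawal (1W), cocaine with 30 days of withdrawal (30W), and cocaine with 1 or 30 days of withdrawal followed by an extinction test of cue-induced seeking (1C and 30C). The labels give neither the withdrawal time of the saline rats nor whether they were tested, and they leave unstated whether each array was made from a single rat or from pooled rats. P-values therefore measure only the spread between these samples, which may be technical.

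The nucleus accumbens is the ventral part of the striatum. Most of its neurons are GABAergic medium spiny neurons that carry dopamine receptors, with a smaller number of cholinergic interneurons. The region holds few or no neurons that express Slc17a7 itself, since its glutamate input comes from axons whose cell bodies lie in cortex, hippocampus, thalamus and amygdala. It borders the septum and pallidum, and lies near the lateral ventricle, whose wall is lined by ependymal cells with beating cilia and which holds the choroid plexus.

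Slc17a7 itself spanned 31.9-fold over the arrays. Its log2 levels were 7.16, 11.52 and 12.02 in Sal, 11.28, 11.19 and 9.83 in 1W, 11.22, 11.00 and 11.04 in 30W, 10.02, 11.56 and 10.96 in 1C, and 12.16, 10.94 and 9.23 in 30C (replicates 1 to 3 in each). The saline replicate 1 array stood far below the rest, the next lowest being 30C replicate 3. The groups overlapped, and 5.18% of the variance of Slc17a7 lay between groups. Medium spiny neuron markers were present on every array: the log2 level of Penk, which encodes proenkephalin, ranged from 12.39 to 12.92, and that of Ppp1r1b, which encodes the dopamine-regulated phosphatase inhibitor DARPP-32, from 11.80 to 12.39.

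The members' r ranged from -0.867 for Spint2 to -0.593 for Gsta4, with a median of -0.68, against a median of -0.03 over all 14497 genes. At the edge of the choice stood Cyb5r2 (r = -0.595), Slc25a18 (-0.593) and Gsta4 (-0.593) inside, and Snrpf (-0.593), Stc1 (-0.591) and Fank1 (-0.590) outside. The spans of the members were much smaller than that of Slc17a7: the highest array exceeded the lowest by a median of 1.63-fold, from 1.37-fold for Crip1 to 3.12-fold for Bbox1. The median slope was -0.11 log2 units per log2 unit of Slc17a7. Of the 100, 94 lay above the array's 30th percentile on at least 3 arrays; Pi15, Mlf1, Bbox1, Clic6, Or6c1h and Or6c215 did not.

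**Figure D1:**
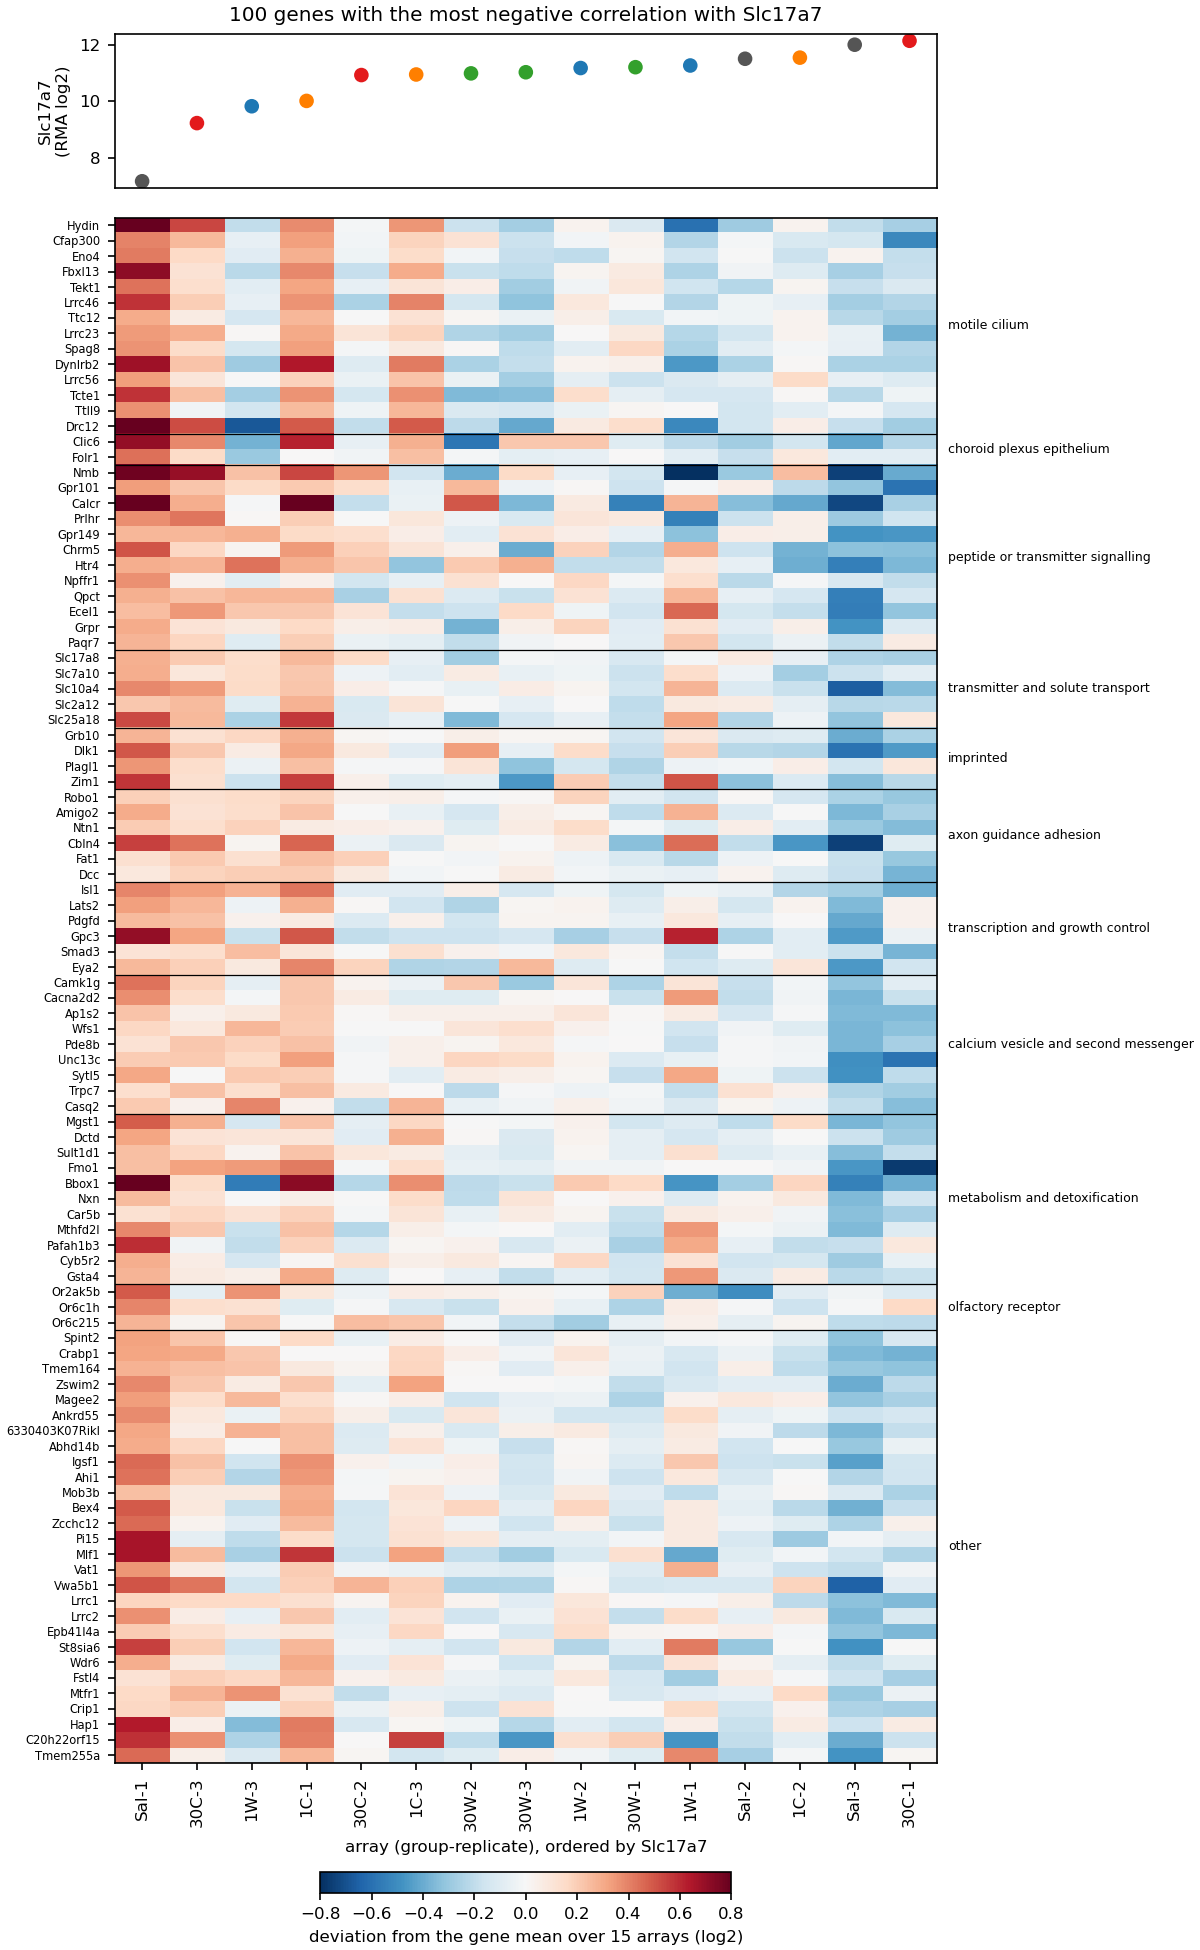
Log2 deviation of each of the 100 members from its own mean (rows, grouped by known role; the colour scale ends at 0.8 in each direction) on 15 arrays (columns, ordered by Slc17a7, whose RMA log2 level is plotted above with points coloured by group). Saline replicate 1, at 7.16 for Slc17a7, carries the highest value of 73 members, and Sal replicate 3 and 30C replicate 1, at 12.02 and 12.16, carry the lowest value of 46 and 22.

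A few arrays held most of the members' extreme values. Saline replicate 1 held the highest value of 73 members, 1C replicate 1 that of 15 and 1W replicate 3 that of 6. The lowest value fell on Sal replicate 3 for 46 members and on 30C replicate 1 for 22. The mean deviation of the 100 members was 0.38 on saline replicate 1, 0.26 on 1C replicate 1 and 0.18 on 30C replicate 3, against -0.31 on Sal replicate 3 and -0.21 on 30C replicate 1. Without saline replicate 1 all 100 members kept a negative r, with a median of -0.60, but 61 of the 100 would not have been chosen: 39 remained among the 100 most negative genes. In bulk RNA, fewer cells of a type and less RNA per cell cannot be told apart.

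Sorted by marker lists, 15 members were on a list and 85 on none. Striatal markers were 2, Isl1 and Gpr149 of the medium spiny neuron list. Slc17a8 and Ecel1 were on the cholinergic neuron list, which was not read as striatal alone. Its mean deviation was highest on 1W replicate 1 (0.48), as was that of the list of neighbouring regions (0.22). The medium spiny neuron list stood at -0.23 on that array. The only glial marker was Slc7a10, an astrocyte gene. Markers of neighbouring regions (septum, hypothalamus and pallidum) were 5, namely Dlk1, Gpr101, Calcr, Ahi1 and Hap1, and those of choroid plexus and ependyma were another 5, namely Hydin, Tekt1, Dynlrb2, Clic6 and Folr1. Members made up 4.66% of all eligible genes, which is the share to set beside 2 of 32 eligible medium spiny neuron genes, 2 of 6 cholinergic, 5 of 23 septum, hypothalamus and pallidum, 1 of 7 astrocyte and 5 of 13 choroid plexus and ependymal genes. No member was on the oligodendrocyte (5 eligible), oligodendrocyte precursor (3), microglia (12), endothelial (5), meningeal (7) or GABAergic interneuron (9) list. The SD minimum alone kept out Gad1 and Gad2 (r = -0.60 and -0.65), which encode the GABA-synthesising enzymes and are expressed by medium spiny neurons too, and Notch3 (-0.60) of the endothelial and mural list.

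By known function, written from the gene names once the members were known, the largest group was the motile cilium, with 14 genes. Motile cilia beat by dynein motors that slide the microtubules of the axoneme. Hydin encodes a protein of the axoneme's central pair, Tekt1 a tektin, Dynlrb2 a dynein light chain, Drc12, Tcte1 and Fbxl13 parts of the dynein regulatory complex, Lrrc23 a radial spoke protein, Cfap300, Ttc12 and Lrrc56 proteins needed to assemble dynein arms, and Ttll9 an enzyme that adds glutamates to tubulin. The other members of the group were Spag8, Lrrc46 and Eno4, known from sperm flagella.

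Hydin had the most negative r of the group (-0.77). Its log2 levels were 7.79, 6.71 and 6.80 in Sal, 6.40, 7.02 and 6.80 in 1W, 6.88, 6.82 and 6.72 in 30W, 7.37, 7.02 and 7.35 in 1C, and 6.73, 6.98 and 7.53 in 30C. Saline replicate 1 was highest, and 30C replicate 3 and 2 of the 1C arrays followed. Dynlrb2 gave 6.53, 5.60 and 5.60 in Sal, 5.39, 5.88 and 5.57 in 1W, 5.89, 5.60 and 5.66 in 30W, 6.49, 5.86 and 6.27 in 1C, and 5.60, 5.75 and 6.08 in 30C. Drc12 gave 8.47, 7.48 and 7.44 in Sal, 7.11, 7.70 and 6.95 in 1W, 7.77, 7.42 and 7.22 in 30W, 8.12, 7.68 and 8.12 in 1C, and 7.35, 7.43 and 8.15 in 30C. For all 3 genes the same array, saline replicate 1, was highest, and 1W replicate 3, whose Slc17a7 was the 3rd lowest of the 15, was not high.

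The motile cilium genes shared variation that Slc17a7 did not take up. After each gene's linear fit on Slc17a7 was removed, the median r between pairs of these 14 genes was 0.66, against 0.14 with the other members, 0.25 among all 100 members and 0.02 among all eligible genes. The residual mean of the 14 was highest on 1C replicate 3 (0.29) and 1C replicate 1 (0.25) and lowest on 1W replicate 3 (-0.29) and 30W replicate 3 (-0.20). Their r with Slc17a7 was weaker without saline replicate 1 in 14 of 14, with a range from -0.71 for Cfap300 to -0.26 for Ttll9. Of the 14, 2 were then among the 100 most negative genes. All members were chosen with that array included, and only 29 of the 100 became more negative without it. Markers of the choroid plexus did not all follow. The folate receptor gene Folr1 had r = -0.61, or -0.16 without saline replicate 1, and the chloride channel gene Clic6 r = -0.66, or -0.50 without it. Ttr, which encodes transthyretin and is abundant in choroid plexus, had r = -0.25 and its highest level on 30W replicate 3 (10.20), where the cilium genes were low.

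**Figure D2:**
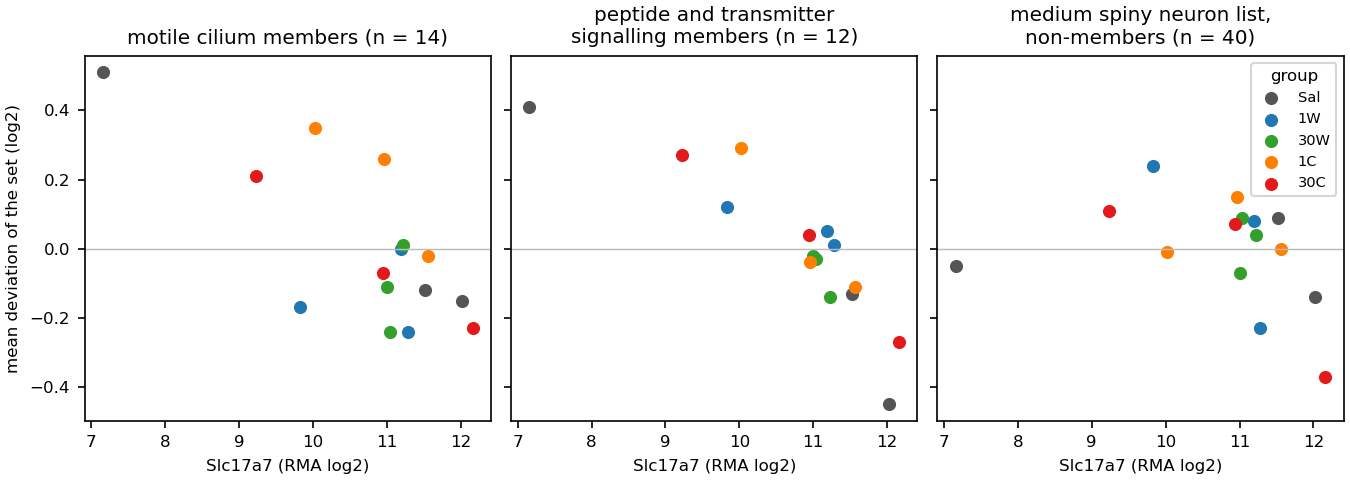
Mean log2 deviation of 14 motile cilium members, 12 peptide and transmitter signalling members and the 40 non-members of the medium spiny neuron list (vertical axes) against Slc17a7 in RMA log2 (horizontal axes), 1 point per array, coloured by group. The cilium members reach 0.51 on the array with Slc17a7 at 7.16, where the medium spiny neuron genes stand at -0.05.

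The promoters of the cilium members are shown because the genes varied together and because ciliary genes are known to carry X-box motifs, the binding sites of RFX transcription factors. RefSeq windows of 300 bases on assembly GRCr8, 250 before to 50 after each gene's start, were matched by gene ID for 85 of the 100 members. The core of the motif was searched as GTTGCC on both strands, and an X-box of 2 cores facing each other as GTTNCC, then 2 free letters, then GGNAAC, which can overlap the core. Stretches of these windows follow, each ending at or before the gene's start and running in the gene's direction. Every core in them is in capitals (GGCAAC is the core on the other strand). Only stretches around cores at positions -54 to -6 from the start are shown. Upstream cores at positions -196 to -141, in Tcte1, Drc12, Ttll9, Lrrc56 and Lrrc23, are left out.

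Ttll9, chr3:161889639-161889684, plus strand: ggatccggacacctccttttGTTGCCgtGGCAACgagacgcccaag
Fbxl13, chr4:14307057-14307102, plus strand: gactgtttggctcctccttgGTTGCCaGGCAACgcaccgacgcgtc
Tekt1, chr10:57479135-57479180, minus strand: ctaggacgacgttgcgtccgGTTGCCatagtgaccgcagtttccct
Eno4, chr1:268082504-268082549, plus strand: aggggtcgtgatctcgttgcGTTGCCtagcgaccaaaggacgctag
Lrrc56, chr1:205730327-205730372, plus strand: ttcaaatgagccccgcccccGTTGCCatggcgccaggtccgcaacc
Lrrc23, chr4:159277765-159277807, minus strand: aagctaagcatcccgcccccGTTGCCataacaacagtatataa
Hydin, chr19:55146440-55146465, plus strand: gccaccctagcggttgctgtGGCAAC

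The core was present in 10 of the 13 matched cilium members (76.9%), in 10 of the 72 other matched members (13.9%) and in 12.2% of the 27457 gene promoters in the table. In the 250 upstream bases alone it was present in 9 of 13, in 8 of 72 and in 9.9% of all. The longer motif was found in Ttll9, Zswim2 and Ahi1, and in 0.459% of all promoters. These are matches of letters, and no binding was measured.

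Genes of peptide and transmitter signalling were 12. Among ligands and their processing, Nmb encodes the peptide neuromedin B, Qpct the glutaminyl cyclase that modifies peptide ends, and Ecel1 a neuronal endopeptidase-like protein. Nmb had 9.14, 8.07 and 7.62 in Sal, 7.56, 8.30 and 8.60 in 1W, 8.22, 7.97 and 8.52 in 30W, 8.90, 8.61 and 8.21 in 1C, and 7.96, 8.72 and 9.06 in 30C (r = -0.76). The high arrays were saline replicate 1, 30C replicate 3 and 1C replicate 1, and the groups overlapped. Nmb spanned 2.98-fold, and its SD of 0.48 was among the 5 largest of the members, beside Calcr (0.49), Bbox1 (0.47), Drc12 (0.43) and Clic6 (0.38).

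The receptors among them were Calcr for calcitonin and amylin, Prlhr for prolactin-releasing peptide, Npffr1 for neuropeptide FF, Grpr for gastrin-releasing peptide, Chrm5 for acetylcholine and Htr4 for serotonin, with the orphan receptors Gpr101 and Gpr149 and the membrane progestin receptor gene Paqr7. Calcr had 9.22, 7.97 and 7.58 in Sal, 8.58, 8.38 and 8.30 in 1W, 7.77, 8.81 and 7.95 in 30W, 9.17, 7.90 and 8.26 in 1C, and 8.05, 8.12 and 8.60 in 30C (r = -0.73). Saline replicate 1 and 1C replicate 1 were highest. Unlike the cilium group, this group's median r was about the same without saline replicate 1 (-0.68 with it and -0.68 without), and 5 of 12 members were then more negative. Gpr149, on the medium spiny neuron list, went from -0.70 to -0.79, and Htr4 from -0.67 to -0.77, whereas Npffr1 went from -0.66 to -0.32.

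Isl1, a transcription factor gene needed for direct-pathway medium spiny neurons and for cholinergic interneurons, ranked second of the 100 (r = -0.86) and first without saline replicate 1 (-0.92). Its levels were 7.99, 7.54 and 7.33 in Sal, 7.57, 7.57 and 7.88 in 1W, 7.46, 7.65 and 7.47 in 30W, 8.03, 7.37 and 7.51 in 1C, and 7.21, 7.51 and 7.93 in 30C. The 4 arrays with the lowest Slc17a7 were the 4 with the highest Isl1. Other members of cholinergic neurons were Slc17a8 (r = -0.76), which encodes a vesicular glutamate transporter found in cholinergic and serotonergic neurons, and Ecel1 (-0.62). Of the 4 cholinergic list genes outside the 100, the choline transporter gene Slc5a7 stood at rank 105 (r = -0.59). The vesicular acetylcholine transporter gene Slc18a3 stood at rank 151 (-0.55), and both entered the 100 without saline replicate 1. Lhx8, at rank 138, instead went from -0.56 to -0.42 without that array and did not enter. Ngfr had r = -0.43 and did not enter either. The transport members further held Slc10a4 (-0.76), a vesicular transporter gene of cholinergic and monoaminergic neurons, and Slc25a18, a mitochondrial glutamate carrier gene.

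**Figure D3:**
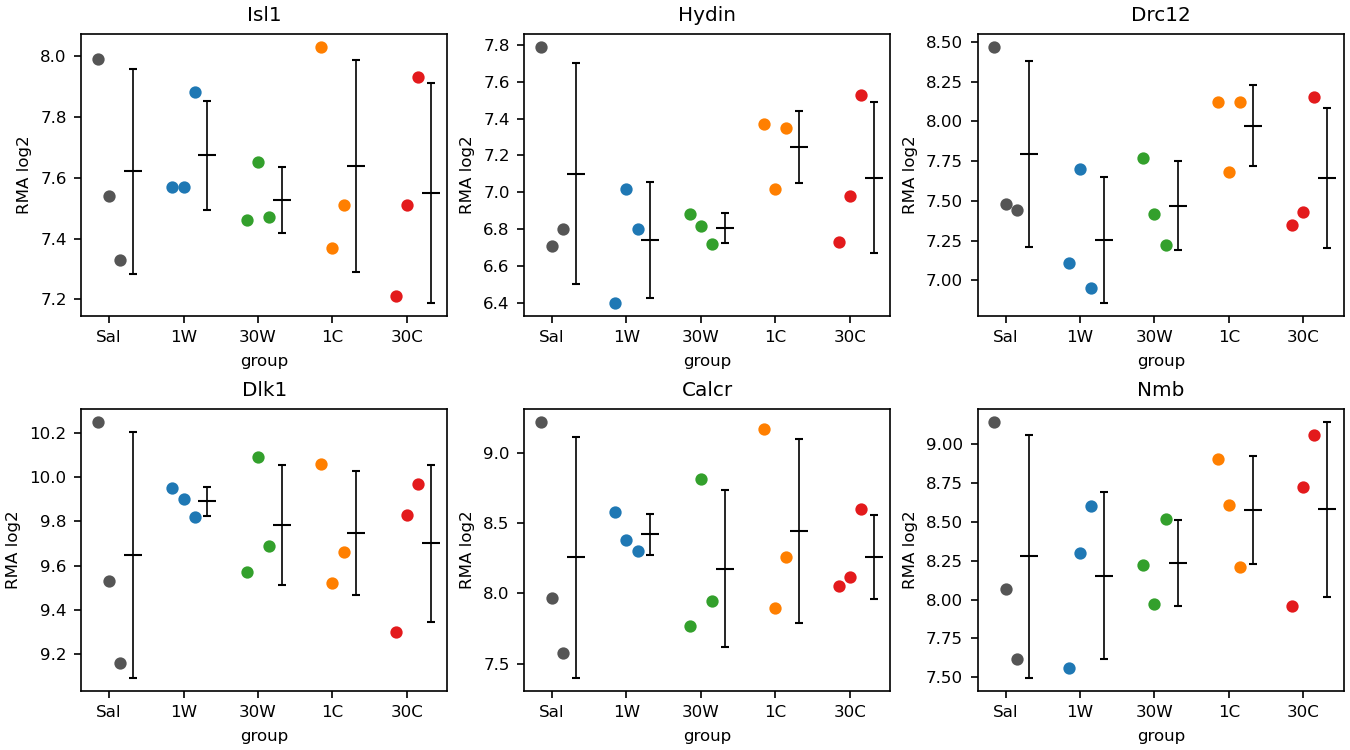
RMA log2 levels of Isl1, Hydin, Drc12, Dlk1, Calcr and Nmb in the 5 groups (points, 3 arrays each; the bar beside them gives the group mean with its SD). In each panel saline replicate 1 lies above the other 2 saline arrays, and for Hydin the 3 arrays of 1C, at 7.37, 7.02 and 7.35, lie level with or above those of 1W.

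Imprinted genes were 4: Dlk1, a Notch-family ligand gene, Grb10, an adaptor of insulin signalling, Plagl1, a zinc finger factor gene, and Zim1. Dlk1 had 10.25, 9.53 and 9.16 in Sal, 9.95, 9.90 and 9.82 in 1W, 9.57, 10.09 and 9.69 in 30W, 10.06, 9.52 and 9.66 in 1C, and 9.30, 9.83 and 9.97 in 30C (r = -0.75). Saline replicate 1 was highest and Sal replicate 3 lowest. Grb10 had r = -0.78, Plagl1 -0.62 and Zim1 -0.60. Without saline replicate 1 these were -0.81, -0.35 and -0.40, and Dlk1 had -0.71. After removal of Slc17a7, the median r between these 4 genes was 0.49, against 0.30 with the other members.

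Axon guidance and adhesion genes were 6. Ntn1 encodes netrin-1, Dcc its receptor, and Robo1 the receptor of Slit proteins, while Amigo2, Fat1 and Cbln4 encode adhesion or synapse-organising proteins. In this group the median r did not weaken without saline replicate 1 but went from -0.70 to -0.77, and all 6 were again among the 100. Dcc went from -0.66 to -0.88 and Fat1 from -0.68 to -0.82. For the 9 calcium, vesicle and second-messenger genes the median was -0.68 with the array and -0.69 without it, with 5 of 9 more negative. Pde8b, a cyclic AMP phosphodiesterase gene, went from -0.68 to -0.87, and Wfs1, which encodes the endoplasmic reticulum protein wolframin and had the highest mean of the 100 (11.89), from -0.68 to -0.80. In the other direction, the kinase gene Camk1g went from -0.71 to -0.51 and the calcium channel subunit gene Cacna2d2 from -0.70 to -0.56.

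Among the members with the most negative r were genes of other kinds. Spint2, a serine protease inhibitor gene, had 8.07, 7.74 and 7.43 in Sal, 7.73, 7.78 and 7.76 in 1W, 7.68, 7.75 and 7.66 in 30W, 7.91, 7.65 and 7.81 in 1C, and 7.62, 7.69 and 7.97 in 30C. It was highest on saline replicate 1 and lowest on Sal replicate 3. Crabp1 (r = -0.81) binds retinoic acid in the cytoplasm, Mgst1 (-0.79) encodes a microsomal glutathione transferase and Dctd (-0.77) a deoxycytidylate deaminase. Tmem164 (-0.80), Zswim2 (-0.80), Magee2 (-0.78), Ankrd55 (-0.78) and 6330403K07Rikl (-0.77) completed the 15 most negative with Isl1, Grb10, Hydin, Nmb, Slc17a8 and Slc7a10.

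The 11 members of metabolism and detoxification included a second glutathione transferase, Gsta4, and the carnitine synthesis gene Bbox1, whose r went from -0.67 to -0.36 without saline replicate 1. A further probe set of Gsta4 gave r = -0.32 and one of Mtfr1 -0.39, so these 2 members differed between their probe sets. Of the 3 olfactory receptor genes, Or6c1h and Or6c215 lay below the level filter, Or6c1h with the lowest mean of all members (3.35), and Or2ak5b passed it with a mean of 5.82. The leucine-rich repeat genes Lrrc1 and Lrrc2 had r = -0.67 and -0.67. Of the 6 genes of transcription and growth control, the others beside Isl1 were Smad3, which carries TGF-beta signals, Lats2, a kinase gene of the Hippo pathway, the growth factor gene Pdgfd, the proteoglycan gene Gpc3 and the transcriptional coactivator gene Eya2, with r from -0.69 for Lats2 to -0.61 for Eya2. The 28 members placed in no role group, Spint2 and Crabp1 among them, had a median r of -0.68, and 7 of them were more negative without saline replicate 1.

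Only 1 member was on a glial list, and the 85 members on no list were not sorted by glial expression. Slc7a10, an astrocyte amino acid transporter gene, had 9.51, 9.18 and 9.05 in Sal, 9.36, 9.19 and 9.37 in 1W, 9.05, 9.29 and 9.16 in 30W, 9.44, 8.95 and 9.14 in 1C, and 9.14, 9.18 and 9.31 in 30C (r = -0.76). The SD minimum kept 14 of 21 measured astrocyte genes out of the choice, and 4 of these had an r beyond that of the 100th member, namely Slc4a4 (-0.70), Gja1 (-0.66), Aqp4 (-0.66) and Cbs (-0.63), each with an SD of 0.12 or less. The astrocyte list had a median r of -0.44, with 16 of 21 genes negative. The brightest astrocyte genes, Slc1a2, Aldoc and Slc1a3, had r = 0.13, -0.38 and -0.42. Oligodendrocyte genes had a median r of -0.19, which turned to 0.16 without saline replicate 1. Of the brightest, Mbp had 0.18, Mobp 0.15 and Mal -0.32. Of 32 oligodendrocyte genes measured, 27 were below the SD minimum.

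The medium spiny neuron genes also depended on this saline array. Over 15 arrays 40 of 42 had a negative r, with a median of -0.32. Without saline replicate 1 the median was -0.57, and 10 of them were among the 100 most negative of the 2161 genes then eligible. These 10 were Isl1, Gpr149, Six3, Pdyn, Tmem158, Gng7, Sh3rf2, Adcy5, Pde7b and Dlx5. Gng7, the striatal G protein subunit gene, went from -0.49 to -0.68, and the adenosine receptor gene Adora2a from -0.39 to -0.63. The dopamine receptor gene Drd1 had 10.03, 10.16 and 9.81 in Sal, 9.68, 10.11 and 10.31 in 1W, 10.16, 10.09 and 10.24 in 30W, 10.10, 9.99 and 10.17 in 1C, and 9.54, 10.20 and 10.16 in 30C. It was not high on saline replicate 1, and it was low on 30C replicate 1, where Slc17a7 was highest. Choroid plexus and ependymal list genes among the 100 numbered 5 with this array and 0 without it, but those 5 were chosen with it. The list's 14 non-members had a median r of -0.24 with the array and -0.32 without it, the direction of the medium spiny neuron genes. The list of neighbouring regions was mixed: 28 of 40 genes had a negative r, with a median of -0.23, and its 35 non-members had a median of -0.13, or -0.02 without saline replicate 1. Of its brightest non-members, Resp18 (r = -0.73) was kept out by its SD of 0.13, Zic1 had r = -0.57 and Sparc -0.51. Other genes of the list ran with Slc17a7, among them Cbln2 (0.75), Cbln1 (0.67), Gal (0.50) and Slc17a6 (0.40), picked after their values were seen.

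**Figure D4:**
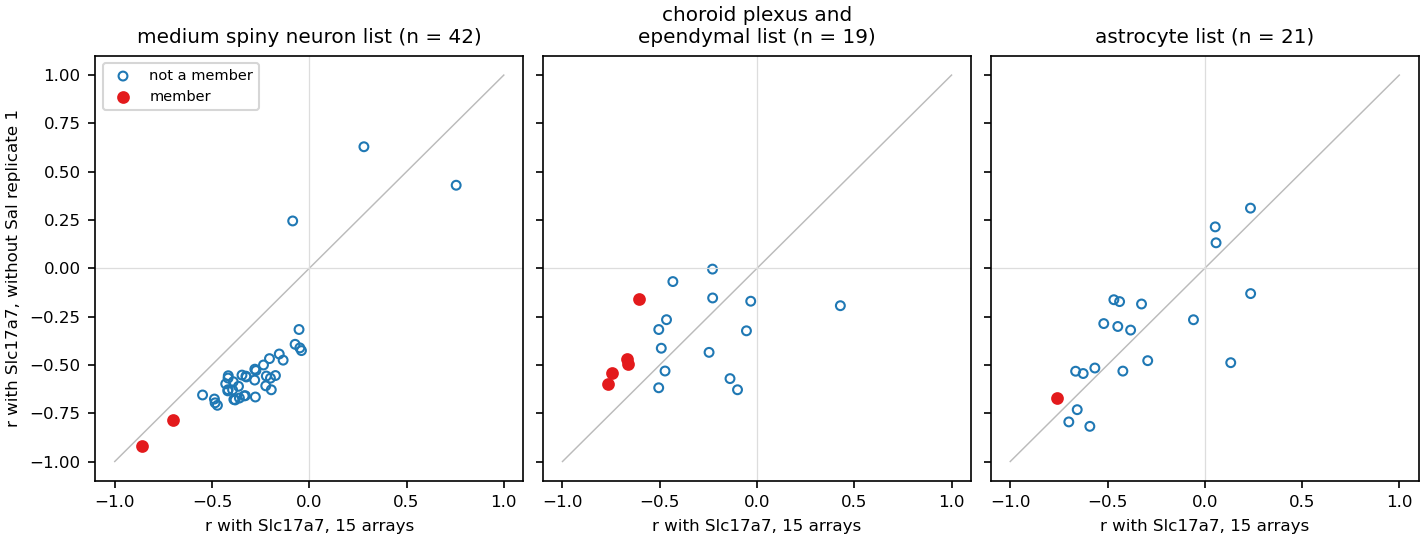
Correlation with Slc17a7 of each gene of 3 marker lists over 15 arrays (horizontal) and without saline replicate 1 (vertical), with members filled and the diagonal marking equal values. Most of the 42 medium spiny neuron genes lie below the diagonal (median -0.32 against -0.57), whereas the 5 choroid plexus and ependymal members lie above it. The 14 non-members of that list had a median of -0.24 against -0.32.

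**Figure D5:**
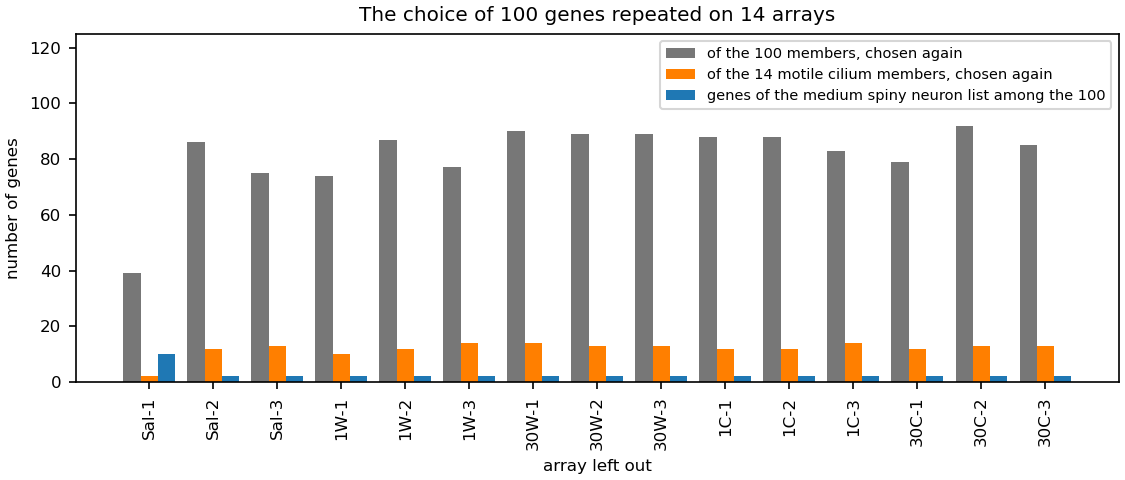
Number of genes (vertical axis) when the choice of 100 genes was repeated without the array named on the horizontal axis: members chosen again, motile cilium members chosen again, and medium spiny neuron list genes among the 100. Leaving out saline replicate 1 gives 39, 2 and 10, and leaving out any other array keeps at least 74, 10 and 2.

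The study's groups were compared with limma on 11778 genes, with Benjamini-Hochberg adjustment, over the 94 members above the level filter. No member passed an adjusted p of 0.05 in any of 8 comparisons, in the F test over the 5 groups or in the interaction of withdrawal time with the test, and neither did any other gene (0% of 11778 in each). The smallest adjusted p of a member was 0.523, for Qpct in 30W against 1W. Counts at an unadjusted limma p under 0.05 were read against the share of all genes in the same direction. In 1C against 1W, 3 members were higher and 0 lower, with 1.86% of all genes higher and 2.17% lower. In 30C against 1C the members were 0 higher and 1 lower (2.41% and 3.07% of all genes), in 1W against Sal 0 and 1 (2.78% and 2.09%), and in 30W against Sal 0 and 1 (4.25% and 3.35%). No member was under that p in 30C against 30W (2.11% of all genes higher and 1.82% lower), 30W against 1W (4.19% and 5.9%), 1C against Sal (2.1% and 1.33%), 30C against Sal (2.94% and 2.12%) or the interaction (1.6% and 1.43%). The limma F test had 1 member under it, Lrrc56 (1.06% of members, against 6.96% of all genes). As shares of the 94 members, 3 is 3.19% and 1 is 1.06%, so a count stood above the share of all genes in 1C against 1W and below it in the others. A median of 16.3% of a member's variance lay between groups, against 26.8% over eligible genes.

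The 3 members in 1C against 1W were all cilium genes. Lrrc56 had 7.70, 7.67 and 7.74 in 1C and 7.40, 7.44 and 7.51 in 1W, and its groups did not overlap. Its difference was 0.25 log2 (SE 0.10; adjusted p = 1 by limma). That of Dynlrb2 was 0.59 (SE 0.23) and that of Drc12 0.72 (SE 0.29), both with overlapping groups and an adjusted p of 1. All 14 cilium genes were nominally higher in 1C than in 1W (median 0.27 log2, against 0.03 for the 94 members and -0.005 for all genes). All 14 were nominally lower in 30C than in 1C (median -0.21, against -0.10 and -0.01). Of the 94 members, 59 were higher and 35 lower in 1C than in 1W. In 30C against 1C, 82 were lower and 12 higher, so a fall there was common to most members. These comparisons share the 1C arrays, and the genes vary together. Against Sal, the cilium median was -0.17 for 1W, -0.20 for 30W, 0.13 for 1C and -0.10 for 30C. Without saline replicate 1 the same medians were 0.01, 0.03, 0.31 and 0.06, so that 3 of the 4 changed sign with 1 control array.

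In the other comparisons the smallest p-values belonged to a range of members, all short of the adjusted threshold. In 30C against 30W, Vwa5b1 differed by 0.41 (SE 0.21), Tcte1 by 0.28 (SE 0.19) and Plagl1 by 0.23 (SE 0.12), with an adjusted p of 0.999 in limma for each. In 30W against 1W, Qpct differed by -0.34 (SE 0.17), Grpr by -0.26 (SE 0.15) and Gsta4 by -0.24 (SE 0.13). These are a peptide-modifying enzyme, a peptide receptor and a detoxifying enzyme. In 30C against 1C, Lrrc56 differed by -0.21 (SE 0.10), Ttll9 by -0.21 (SE 0.12) and Casq2, which encodes a calcium-binding protein of the reticulum, by -0.25 (SE 0.13).

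Against saline, the leading members were Eno4 (-0.29, SE 0.13), Drc12 (-0.54, SE 0.29) and Qpct (0.33, SE 0.17) for 1W, and Lrrc56 (-0.23, SE 0.10), Tcte1 (-0.33, SE 0.19) and Plagl1 (-0.21, SE 0.12) for 30W. For 1C they were Abhd14b (0.17, SE 0.12), Crip1 (0.16, SE 0.12) and Vwa5b1 (0.28, SE 0.21). For 30C they were Vwa5b1 (0.30, SE 0.21), Casq2 (-0.18, SE 0.13) and Eno4 (-0.17, SE 0.13). Single saline arrays moved these values by over 1.5 times. Without saline replicate 1 the differences of Eno4 were -0.16 for 1W and -0.03 for 30C, of Drc12 -0.21, of Lrrc56 -0.09, of Tcte1 -0.08, of Plagl1 -0.07 and of Casq2 -0.08, and those of Qpct (0.52), Abhd14b (0.34), Crip1 (0.28) and Vwa5b1 (0.58 for 1C and 0.59 for 30C) were larger. Without Sal replicate 3, Qpct differed by 0.11, Abhd14b by 0.04, Crip1 by 0.08, Casq2 by -0.29 and Vwa5b1 by 0.0015 for 1C and 0.02 for 30C. Slc17a7 did not pass in any comparison, its largest difference being 0.85 log2 (SE 1.03) in 30W against Sal. Without saline replicate 1 that difference was -0.69, and those of 1W, 1C and 30C against Sal also changed sign, that of 1C from 0.61 to -0.93.

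With Slc17a7 as a covariate, no member passed the adjusted threshold either, while 0.0255% of all genes passed in 30C against 30W, 0.00849% in 30C against 1C, 0.00849% in the F test and 0% elsewhere. Members under an unadjusted limma p of 0.05 were then 22 of 94 higher in 1C than in 1W (2.48% of all genes), 22 higher in 1C than in Sal (3.71%), 12 higher in 1W than in Sal (3.88%) and 13 lower in 30C than in 1C (4.1%). These were the largest counts. Smaller ones were 1 higher and 1 lower in 30C than in 30W (2.79% and 2.04%), and 4 lower in 30W than in 1W (6.25%). In 30W against Sal 5 were higher and 1 lower (4.65% and 5.1%). In 1W against Sal 1 was lower (3.13%), and in 30C against Sal 3 were higher (3.3%). The interaction had 5 lower (1.81%) and the F test 11 (8.53%). Of the 94, 3 is 3.19%, 4 is 4.26%, 5 is 5.32% and 11 is 11.7%. The covariate is the gene by which the members were chosen, so it takes up more of their spread than of other genes' by the choice itself. The smallest adjusted p of a member in 1C against 1W was 0.562, for Lrrc56 (0.26, SE 0.06), followed by Dynlrb2 (0.61, SE 0.14) and Hydin (0.53, SE 0.13).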

How the data were processed

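RNA of the nucleus accumbens was measured on 15 arrays. The deposited values are on the log2 scale, and the submitters' processing notes name RMA without a version as the authors' method. RMA brings arrays to a common distribution, so each value is relative to the rest of its array, and the number of arrays limits precision. The labels name a kit for 3' arrays, whereas the identifiers are of a whole-transcript array. The table had 28826 probe sets, of which 15209 had 1 symbol in the platform annotation and 306 several, which were not named.

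Correlations were computed in Python 3.11.15. Groups were compared with limma 3.58.1 in R 4.3.3 (1 fit over 15 arrays, group as the term, two-sided, Benjamini-Hochberg over 11778 genes that exceeded an array's 30th percentile in 3 arrays or more). Scripts were tested on simulated data. The members, marker lists, role groups and tests were chosen with earlier results of these data known. Named genes were Slc17a7, the 15 members of most negative r, every member on a list, ranks 98 to 103, the 3 smallest p-values per comparison, the 5 largest SDs, the highest and lowest mean, members of 1 family and the 3 brightest other genes of 4 lists. Further genes were named after their values were seen. No pairing by replicate number was seen: arrays of the same number had a median correlation of deviations of -0.01, over 0.1 in 10 of 30 pairs. Arrays of different number had -0.01 too, over 0.1 in 21 of 60 pairs. These values cannot exclude a pairing.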

Additional observations from a re-analysis of the deposited data

How the results depend on the processing

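Of the 100 members, 39 to 92 were chosen again when each array was left out in turn, the lowest without saline replicate 1. Medium spiny neuron genes among the 100 then numbered 2 to 10, and glial genes 0 to 3. Spearman correlation kept 55 members, of which 4 of the 14 motile cilium genes, with 6 medium spiny neuron genes and 1 choroid plexus or ependymal gene. The mean of cortical markers in place of Slc17a7 gave 4 medium spiny neuron genes, and the same mean without Slc17a7 kept 66 members and also gave 4. An SD minimum of 0.10 kept 46 members with 2 glial genes, and one of 0.20 kept 49. Without the arrays of highest and lowest Slc17a7, 37 members remained, with 5 medium spiny neuron and 0 glial genes. Without the saline arrays, an alternative chosen after seeing the data, 25 remained, with 12 and 0. With the replicate number as a block, 76 members remained with 4 medium spiny neuron genes, and 0 members passed limma's adjusted threshold in any comparison. The causes were not tested. The count of members past the threshold was 0 under every alternative run. None of the 24 named log2 differences changed sign under its 26 alternatives, though several against saline moved by over 1.5 times. The 26 named correlations stayed negative under their 22. With 3 arrays per group, small differences were not detectable.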
